A study of Mus musculus with 6 samples.

Results

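SOX transcription factors were examined in mouse embryonic fibroblasts (MEFs) with and without Rnf40, which encodes a subunit of the E3 ligase for monoubiquitination of histone H2B. The members are the 10 rows of the deposited table with the symbols Sox4, Sox5, Sox6, Sox7, Sox8, Sox9, Sox11, Sox12, Sox17 and Sox18, out of 29955 genes. RNA-seq was performed on 3 libraries labelled Rnf40+/+ and 3 libraries labelled Rnf40-/-, all from MEFs at passage 3. The MEFs were isolated from mid-gestation embryos of a conditional mouse line whose Rnf40 exons flanked by loxP sites are removed by Cre-ERT2, a tamoxifen-inducible recombinase expressed from the ubiquitous Rosa26 locus. For deletion, cells received 250 nM 4-hydroxytamoxifen (4-OHT) for 5 days and were grown for 3 days without it. The study's methods describe the MEFs as made from embryos homozygous for the floxed allele that carried the recombinase. Whether the Rnf40+/+ cells for RNA-seq received 4-OHT is not given in the sources used here, so the deletion and the treatment cannot be told apart. These sources also do not say whether the 3 libraries of a genotype came from separate embryos, and p-values measure only the spread between these libraries, which may be technical.

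SOX proteins bind DNA through an HMG box, a domain that reaches into the minor groove and bends the helix, and they are sorted into groups by the sequence of this box. The SOXC group (Sox4, Sox11 and Sox12) is active in progenitors of the nervous system and the mesenchyme. SOX9, of the SOXE group, is the main factor of chondrocyte fate and acts on cartilage genes together with SOX5 and SOX6 of the SOXD group, which carry no transactivation domain of their own. The SOXF group (Sox7, Sox17 and Sox18) is known for endothelial and lymphatic development.

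A coding stretch that the SOX genes share is shown first, because the results are ordered by the groups that the HMG box defines. It is the stretch of 60 coding bases, within the HMG box, that the other genes together share most with Sox9, taken from the mm9 transcripts, 5′ to 3′, with bases identical to those of Sox9 in capitals, for 9 of the members.
Sox9, chr11:112645160-112645219, plus strand: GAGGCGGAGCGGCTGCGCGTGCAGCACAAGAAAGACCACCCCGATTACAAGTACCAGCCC
Sox8, chr17:25705909-25705968, minus strand: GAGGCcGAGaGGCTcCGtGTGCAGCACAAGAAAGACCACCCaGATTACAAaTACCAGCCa
Sox4, chr13:29044501-29044560, minus strand: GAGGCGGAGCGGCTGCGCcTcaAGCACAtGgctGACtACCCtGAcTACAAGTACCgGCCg
Sox11, chr12:28026914-28026973, minus strand: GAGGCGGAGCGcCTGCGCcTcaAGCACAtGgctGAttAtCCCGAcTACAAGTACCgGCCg
Sox12, chr2:152223102-152223161, minus strand: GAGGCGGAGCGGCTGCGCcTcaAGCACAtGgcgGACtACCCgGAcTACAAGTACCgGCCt
Sox7, chr14:64566642-64566701, plus strand: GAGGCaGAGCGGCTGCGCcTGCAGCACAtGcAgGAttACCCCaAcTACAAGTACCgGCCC
Sox18, chr2:181405592-181405651, minus strand: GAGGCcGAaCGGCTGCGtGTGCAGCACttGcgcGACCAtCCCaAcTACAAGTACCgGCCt
Sox5, chr6:143783823-143783882, minus strand: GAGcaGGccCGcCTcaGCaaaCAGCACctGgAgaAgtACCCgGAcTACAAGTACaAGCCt
Sox6, chr7:122630169-122630228, minus strand: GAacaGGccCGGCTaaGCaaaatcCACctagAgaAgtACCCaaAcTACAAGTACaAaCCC

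Of these 60 bases, Sox8 shared 88.3% with Sox9, the SOXF genes Sox7 and Sox18 83.3% and 78.3%, and the SOXC genes between 76.7% and 80%. Sox5 and Sox6 stood farthest away, with 65% and 56.7%. In each of these genes the stretch lies within a single exon, which is the only exon of Sox4 and Sox11, exon 14 of the 15 exons of Sox5 and exon 16 of the 17 exons of Sox6. Over a longer coding window that holds it, the 6 pairs of these 9 genes from the same group were identical at 76.5% to 89.3% of bases and the 30 pairs from different groups at 53.8% to 74.4%, so the ranges did not overlap. The closest pair was Sox4 and Sox11.

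**Figure D1:**
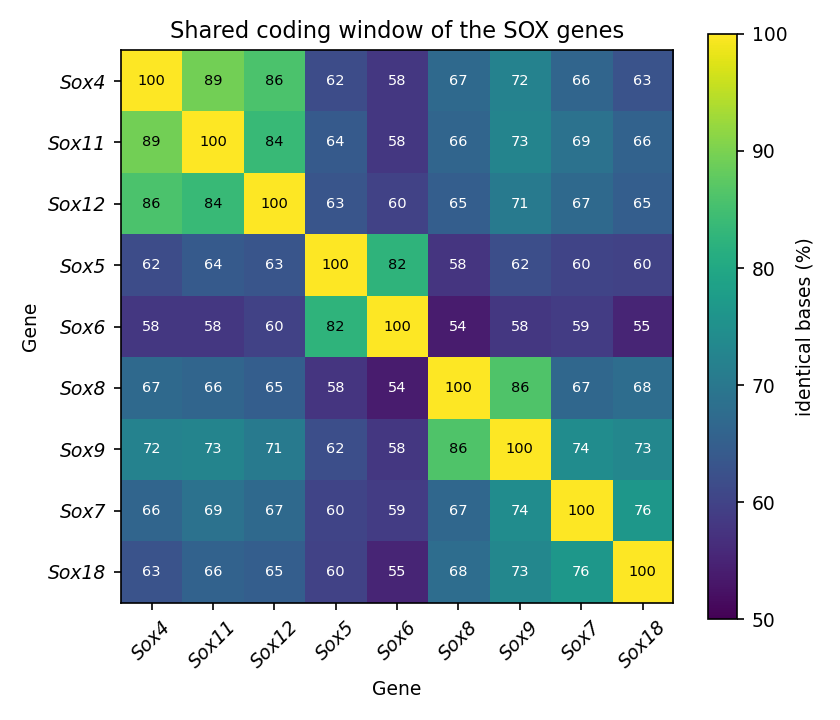
Share of identical bases (in %, colour and number) between each pair of 9 SOX genes over the longer coding window, with the genes on both axes in the order SOXC, SOXD, SOXE and SOXF. The blocks along the diagonal are the groups, within which every pair is at 76.5% or more.

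Levels are given as normalized counts, the reads of a gene scaled by the size factor of its library. The libraries held between 17053436 and 26344170 reads on genes, and 3 reads, taken as the limit of detection, corresponded to a normalized count between 2.40 and 3.58. Rnf40 itself fell from 1189.5 ± 91.2 to 482 ± 39.9 normalized counts (SD, n = 3 each), with 40.5% left. As the values count reads over the whole gene, they do not show the deleted exons alone. The cells had the markers of fibroblasts, as all 15 of a list of fibroblast genes had enough reads to be tested. Their summed level was between 739862 and 815315 normalized counts in Rnf40+/+ libraries and between 452050 and 454104 in Rnf40-/- libraries. Most of this sum came from Fn1, Col1a2, Col1a1 and Vim. At an adjusted p under 0.05, 13 of the 15 were lower in Rnf40-/- MEFs and 0 were higher in limma, edgeR and DESeq2, and 0 were higher at an unadjusted p under 0.05 in limma. By the adjusted rule in limma, 24.1% of all genes tested were lower and 23.3% higher.

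The SOX genes were expressed at very different levels. As RPKM (reads scaled to the length of the transcript and to all reads on genes), a scale on which genes can be compared, Rnf40+/+ MEFs had 10.8 ± 0.481 of Sox11, 10.3 ± 0.692 of Sox4, 5.20 ± 1.08 of Sox12 and 4.21 ± 0.722 of Sox9 (SD, n = 3 each). Sox11 was above Sox4 in 1 of the 3 libraries, so the order of this pair is not set by the data, whereas Sox12 was above Sox9 in each library although their ranges overlapped. The value of Sox11 rests on an annotated transcript of 2013 nucleotides. With the RefSeq gene of 8451 nucleotides it would be 2.57 ± 0.114, below Sox9, and Sox4 would stand alone at the top. The other members were at least an order of magnitude lower, with 0.205 ± 0.0177 RPKM for Sox6, 0.175 ± 0.0409 for Sox8, 0.102 ± 0.101 for Sox5 and 0.10 ± 0.0272 for Sox7, and no neighbours in this order of low levels kept it in every library. Sox17 and Sox18 had no read in any Rnf40+/+ library.

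In Rnf40-/- MEFs Sox4 was the highest on the RPKM scale with either length of Sox11. Sox4 was at 10.9 ± 0.322, and Sox11 at 5.93 ± 0.36 with the shorter length and at 1.41 ± 0.0858 with the RefSeq length. Sox12 and Sox9 were at 2.84 ± 0.29 and 2.53 ± 0.156, with Sox12 the higher in 2 of the 3 libraries, so that Sox11 lay above or below both depending on its length. Sox7 reached 0.486 ± 0.0564 and lay beside Sox6 at 0.498 ± 0.135, whereas Sox8 was at 0.101 ± 0.0495 and Sox5 at 0.0769 ± 0.0609 (SD, n = 3 each). The plot of normalized counts by library shows these levels.

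**Figure D2:**
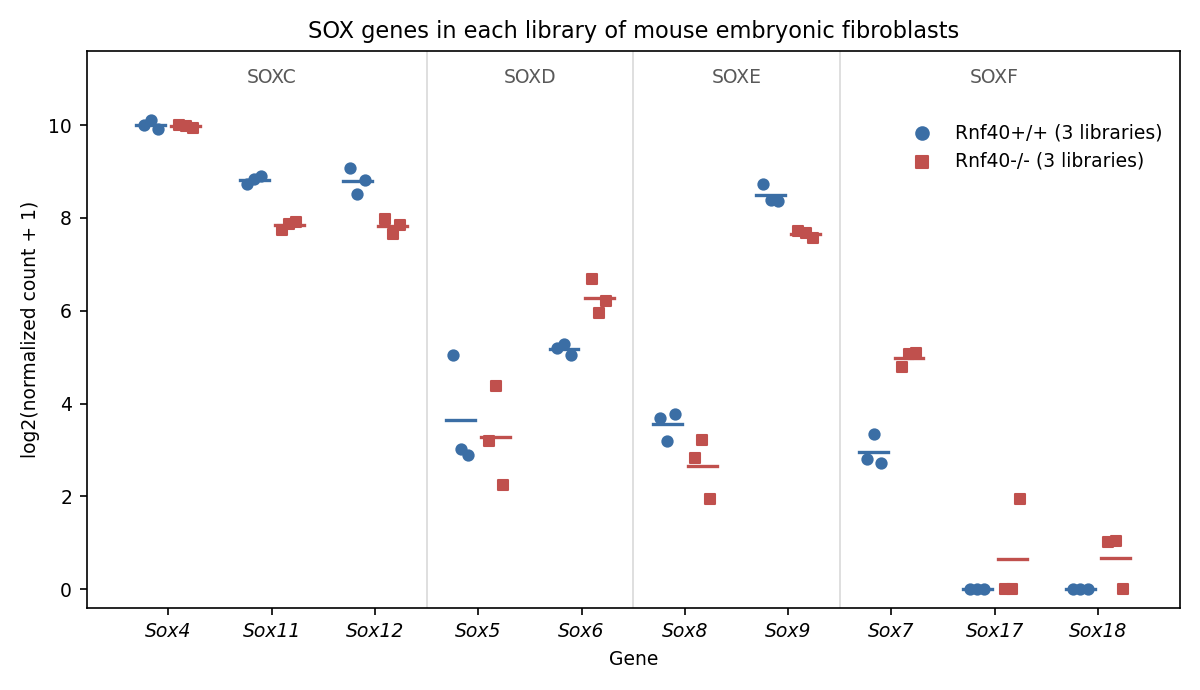
Level of each SOX gene as log2(normalized count + 1), with a point for each of the 3 Rnf40+/+ libraries (blue circles) and the 3 Rnf40-/- libraries (red squares) and a bar for the mean of the log2 values. The genotypes do not overlap for Sox11, Sox12, Sox6, Sox9 and Sox7, overlap for Sox4, Sox5 and Sox8, and are at or near 0 for Sox17 and Sox18.

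To learn which SOX genes depend on Rnf40, the genotypes were compared with limma on log2(normalized count + 1) over all 16378 genes with enough reads. Of the 10 members 6 had enough reads to be tested, namely Sox4, Sox11, Sox12, Sox6, Sox9 and Sox7. Sox7 met the filter through the Rnf40-/- libraries alone, so that it had to differ in order to be tested. With Benjamini-Hochberg adjusted p under 0.05, 3 members (Sox9, Sox11 and Sox12) were lower and 2 (Sox6 and Sox7) higher in Rnf40-/- MEFs. Over all genes tested, 24.1% were lower and 23.3% higher by the same rule, and 47.4% changed in either direction. The shares among the 6 members were above these. As 6 genes are too few and Sox7 had to differ to be tested, this is no result about the family. The libraries of the genotypes did not overlap for 5 of the tested members, against 56.5% of all genes tested. With the criteria of the study (mean above 15, p under 0.05, and a log2 fold change past 1 or -1), Sox6 and Sox7 were higher and 0 members lower in limma, edgeR and DESeq2, against 4.25% and 5.70% of all genes tested. Sox11 and Sox12 fell just short of the limit of -1. In bulk RNA, a smaller share of cells that express a gene and less RNA per cell cannot be told apart.

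Sox4, the most highly expressed SOXC gene in Rnf40-/- MEFs, was close between the genotypes. It lies on chromosome 13 of mm9 (29040788 to 29045582, minus strand) and consists of 1 exon. An annotated antisense RNA overlaps it, and it is not known whether counting used strand. The Rnf40+/+ libraries had 1022, 1100 and 957 normalized counts and the Rnf40-/- libraries 1024, 1004 and 981. The ranges overlapped, and all 3 Rnf40-/- values lay within the Rnf40+/+ range. From limma, the log2 fold change was -0.03 ± 0.07 (SE; adjusted p = 0.754), and the 95% confidence interval from -0.19 to 0.13 leaves out a change of the size seen for the other two SOXC genes.

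Sox11, a SOXC gene best known from neural and mesenchymal progenitors, was lower in every Rnf40-/- library. Its gene on chromosome 12 (28025562 to 28027574, minus strand) also has 1 exon. Rnf40+/+ libraries had 425, 456 and 479 normalized counts, against 212, 233.8 and 239 with Rnf40 deleted. The lowest Rnf40+/+ value was well above the highest Rnf40-/- value, and 50.3% of the Rnf40+/+ mean was left. Sox11 thus had a log2 fold change of -0.99 ± 0.10 (SE; limma, adjusted p = 1.02e-05) with a 95% confidence interval from -1.21 to -0.76.

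Sox12, the third gene of the SOXC group, fell to nearly the same extent. It lies on chromosome 2 (152219347 to 152223782, minus strand). Rnf40+/+ libraries had 536, 367 and 449.6 normalized counts, against 249.8, 201 and 228 with Rnf40 deleted. The Rnf40+/+ libraries were spread more widely than those of Sox11, with replicate 1 the highest, but again no values overlapped and 50.2% was left. For Sox12 limma gave a log2 fold change of -0.98 ± 0.14 (SE; adjusted p = 0.000136) with a 95% confidence interval from -1.29 to -0.67, and -0.85 without Rnf40+/+ replicate 1.

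The confidence intervals of Sox11 and Sox12 thus lay apart from that of Sox4, although the difference between their changes was not itself tested. As Sox4 and Sox11 were the closest pair by HMG box and only one of them changed at the threshold, the 250 bases before their annotated starts are shown (RefSeq, GRCm38.p6, 5′ to 3′ on the gene's strand). Capitals mark the pentamer CCAAT or its complement ATTGG.
Sox4, chr13:28953700-28953949, minus strand: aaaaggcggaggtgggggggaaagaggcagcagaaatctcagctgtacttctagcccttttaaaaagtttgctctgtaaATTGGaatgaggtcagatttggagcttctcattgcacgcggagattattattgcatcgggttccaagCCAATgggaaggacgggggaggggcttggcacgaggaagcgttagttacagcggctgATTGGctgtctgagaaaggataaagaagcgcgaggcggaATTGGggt
Sox11, chr12:27342719-27342968, minus strand: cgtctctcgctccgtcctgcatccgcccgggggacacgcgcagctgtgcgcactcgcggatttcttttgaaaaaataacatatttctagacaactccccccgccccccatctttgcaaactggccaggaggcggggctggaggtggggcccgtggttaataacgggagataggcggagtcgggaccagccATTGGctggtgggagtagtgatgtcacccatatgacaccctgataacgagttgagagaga
Sox12, chr2:152398047-152398296, minus strand: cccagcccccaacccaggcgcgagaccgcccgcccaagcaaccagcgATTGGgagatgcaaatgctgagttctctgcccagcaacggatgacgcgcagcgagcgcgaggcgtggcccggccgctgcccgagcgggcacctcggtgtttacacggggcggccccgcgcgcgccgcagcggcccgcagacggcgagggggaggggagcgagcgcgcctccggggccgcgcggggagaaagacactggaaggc

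The RefSeq table held promoters for 6 of the 10 members, and the windows searched ran from 250 bases before to 50 bases after the start. Counted on both strands, the CCAAT pentamer occurred 4 times in the Sox4 window and 1 time each in the windows of Sox11 and Sox12, and 37.4% of all 32851 promoter windows of this length held it. The dinucleotide CG occurred 12 times in Sox4, 21 times in Sox11 and 47 times in Sox12, which is more than in 60.4%, 75.2% and 98.6% of all windows. The letters AACAAT (a short SOX motif, in 10.7% of all windows), TATAAA (13.6%) and the E2F-like TTTCCCGC or TTTGGCGC (1.565%) were searched for on both strands and were not in these windows. Among the windows of the other members, CCAAT occurred 4 times in a window of Sox6, which rose, and 0 or 1 times in the rest. Other Sox6 windows held AACAAT 2 times or TATAAA 1 time. These are matches of letters, and no binding was measured.

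Among genes described as targets of SOX4 or SOX11, 5 of the 6 listed were in the table and 4 were tested. Of these, 2 were lower at an adjusted p under 0.05 and 0 were higher in limma, edgeR and DESeq2 (0 at an unadjusted p under 0.05 in limma). The shares over all genes tested were 24.1% lower and 23.3% higher in limma. Tead2, a transcription factor of the Hippo pathway, fell from 1390 ± 105 to 816 ± 44.3 normalized counts (log2 fold change -0.77, adjusted p = 1.02e-05 from limma). Ezh2, the methyltransferase of PRC2, fell from 415 ± 79.2 to 182 ± 7.69 (log2 fold change -1.17, adjusted p = 2.35e-05). The paper itself reports monoubiquitinated H2B on Ezh2 and a fall of its expression without RNF40. Wild-type RNF40 restored Ezh2 there, whereas a form lacking the RING finger did not. The part of SOXC genes in the fall of Ezh2 was not tested. Tubb3, a neuronal tubulin, had 1766 ± 784 and 1345 ± 114 normalized counts (SD, n = 3 each) and was not past the threshold (adjusted p = 0.252). These 4 genes had a median of -0.54 on the log2 scale, against -0.0035 for all genes tested.

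Of the SOXD genes, Sox6 rose in Rnf40-/- MEFs. SOX6 is a partner of SOX9 in cartilage and a regulator of muscle and erythroid genes. Its gene is long and lies on chromosome 7 (122614858 to 123182258, minus strand), and 1110006G14Rik, annotated as protein-coding on the other strand, overlaps it. Sox6 had 35.8, 37.7 and 31.9 normalized counts with Rnf40 and 102, 60.5 and 72.7 without it. The Rnf40+/+ libraries lay close together, and the Rnf40-/- libraries were all above them but spread, with replicate 1 the highest. The mean rose from 35.2 ± 2.95 to 78.4 ± 21.3 (SD, n = 3 each), which limma estimated at 1.10 ± 0.24 on the log2 scale (SE; adjusted p = 0.00242) with a 95% confidence interval from 0.58 to 1.62. Without Rnf40-/- replicate 1 it was 0.90 (adjusted p = 0.0188) and no longer passed the minimum fold change of the study.

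Sox5, the closest relative of Sox6 in the list, had few reads and could not be assessed. It spans 953553 bases of chromosome 6 (143776945 to 144730497, minus strand). Sox5 had 32.2, 7.14 and 6.39 normalized counts with Rnf40 and 8.16, 19.8 and 3.78 without it. A single library of each genotype stood above the others, namely Rnf40+/+ replicate 1 and Rnf40-/- replicate 2, and the ranges overlapped. It was not tested, as only 1 library of each genotype passed the limit on reads. With no filter the log2 fold change was -0.38 (adjusted p = 0.698 from limma). The third SOXD gene, Sox13, which is outside the members, rose from 117 ± 11.5 to 158 ± 4.04 normalized counts (log2 fold change 0.43, adjusted p = 0.0239). It was 1 of 10 further SOX family genes in the table, of which 2 had enough reads to be tested, and was the one with an adjusted p under 0.05. The other gene tested, Sox10 of the SOXE group, had 27.3 ± 6.48 and 39.7 ± 2.64 normalized counts (log2 fold change 0.55, adjusted p = 0.112 from limma).

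Of the SOXE members, Sox9 had enough reads to be tested and fell. It lies on chromosome 11 (112643538 to 112649074, plus strand) and has 3 exons. Sox9 had 425, 332 and 331 normalized counts with Rnf40 and 208, 203.5 and 188 without it. The Rnf40-/- libraries were close to each other, Rnf40+/+ replicate 1 was the highest, and the genotypes did not overlap. The mean fell from 363 ± 54.1 to 199.8 ± 10.6 (SD, n = 3 each), so that 55.1% was left. On the log2 scale Sox9 changed by -0.85 ± 0.12 (SE; limma, adjusted p = 0.000156) with a 95% confidence interval from -1.12 to -0.58, and by -0.73 without Rnf40+/+ replicate 1. Sox8, which shares its HMG box most closely with Sox9 and is known from testis, glia and muscle, had 11.9, 8.16 and 12.8 normalized counts in Rnf40+/+ and 6.12, 8.35 and 2.83 in Rnf40-/- libraries. Sox8 lies on chromosome 17 (25702837 to 25707631, minus strand). The ranges overlapped by a small margin, since the highest Rnf40-/- value lay above the lowest Rnf40+/+ value. With 34 and 17 reads per genotype in all, Sox8 was not tested, and with no filter its log2 fold change was -0.89 (adjusted p = 0.186 from limma).

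**Figure D3:**
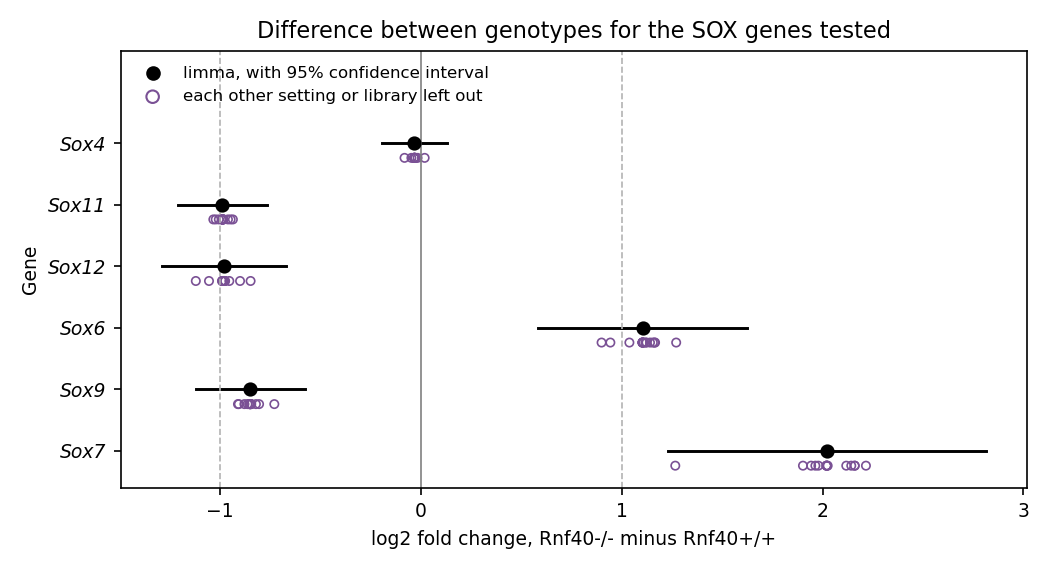
Log2 fold change between the genotypes (Rnf40-/- minus Rnf40+/+) for the 6 SOX genes tested, with the limma estimate and its 95% confidence interval (black) and the estimate under each other setting or with a library left out (open circles). Dashed lines mark a log2 fold change of -1 and 1. The intervals of Sox11, Sox12 and Sox9 lie below 0 and those of Sox6 and Sox7 above 0, and that of Sox4 spans 0.

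Cartilage genes that SOX9, SOX5 and SOX6 are known to act on did not move together. The table held 18 of them, and of the 11 that were tested 3 fell and 3 rose at an adjusted p under 0.05 from limma. These counts were near the shares over all genes tested, 24.1% lower and 23.3% higher. The median log2 fold change was 0.18, against -0.0035 for all genes tested. The median was 0.073 with a mean above 15 and turned to -0.042 with at least 10 reads in every library. The genes that fell had many reads. Col2a1, the main collagen of cartilage, had 1213, 1067 and 894 normalized counts with Rnf40 and 283, 368 and 369 without it, or -1.63 ± 0.13 on the log2 scale (SE; adjusted p = 1.23e-06). Its 3 Rnf40-/- libraries were all far below the lowest Rnf40+/+ library. Col11a2, a chain of collagen XI, fell from 103 ± 4.84 to 61.0 ± 2.51 (log2 fold change -0.75, adjusted p = 0.00315), and Wwp2, whose gene hosts a cartilage microRNA, fell from 1122 ± 36.8 to 901 ± 52.5 (log2 fold change -0.32, adjusted p = 0.00375).

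The cartilage genes that rose at an adjusted p under 0.05 had few reads in Rnf40+/+ MEFs and met the filter through the Rnf40-/- libraries alone. Epyc, a small leucine-rich proteoglycan, went from 5.90 ± 2.21 to 38.8 ± 3.62 normalized counts (adjusted p = 0.000151), Hapln1, a link protein of hyaluronan, from 5.32 ± 3.35 to 27.4 ± 5.55 (adjusted p = 0.00136), and Col9a2, a chain of collagen IX, from 2.40 ± 4.15 to 19.1 ± 7.48 (adjusted p = 0.00559). As they had to be higher in Rnf40-/- MEFs to be tested, their number is no support for a rise of the list. Acan, the aggrecan gene that defines mature cartilage, had 21 and 14 reads per genotype in all and was not tested. Col11a1 had 5577 ± 380 and 5414 ± 299 normalized counts (log2 fold change -0.04, adjusted p = 0.653; SD, n = 3 each).

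Sox7, of the SOXF group, showed the largest change among the members, from a low level. It lies on chromosome 14 (64562511 to 64569569, plus strand) and has 2 exons. Sox7 had 5.97, 9.18 and 5.59 normalized counts with Rnf40 and 26.5, 32.4 and 33.0 without it. Every Rnf40-/- library was above every Rnf40+/+ library, with 21 reads in all Rnf40+/+ libraries together and 92 in the Rnf40-/- libraries. The mean rose from 6.91 ± 1.97 to 30.6 ± 3.59 (SD, n = 3 each), which is 2.02 ± 0.36 on the log2 scale (SE; limma, adjusted p = 0.000704) with a 95% confidence interval from 1.23 to 2.81. With 10 in place of 1 added before the logarithm it was 1.27, and with at least 10 reads required in every library Sox7 was not tested.

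The other SOXF genes were at the limit of detection. Sox17 had 3 reads in Rnf40-/- replicate 3 and 0 reads in the other 5 libraries. Sox18 had 1 read each in Rnf40-/- replicates 1 and 2 and 0 reads elsewhere. Sox18 lies on chromosome 2 (181404541 to 181406345, minus strand). A count of 0 allows up to 3 reads in a library, by counting error only, so a difference between the genotypes was not detectable at this depth for either gene. Of the 7 genes described as SOXF targets, 2 were tested, and they moved in opposite directions. Cdh5, which met the filter through the Rnf40-/- libraries alone, rose, and Vcam1, an adhesion molecule that fibroblasts also express, fell from 5009 ± 432 to 2989 ± 112 normalized counts (log2 fold change -0.74, adjusted p = 6.39e-06). Cldn5, Gja4, Robo4 and Dll4 had at most 6 reads per genotype.

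Endothelial markers were read beside Sox7. Of 12 endothelial markers, 9 were tested, and 4 rose and 1 fell at an adjusted p under 0.05. Among all genes tested, 23.3% were higher and 24.1% lower by this rule. Of the 9 markers, 4 met the filter through the Rnf40-/- libraries alone. These 4 include Cdh5 and Pecam1, which had to be higher to be tested, so their calls are no support for a rise of the list, and with at least 10 reads required in every library 2 markers were higher. Cdh5, the cadherin of endothelial junctions, had 2.39, 5.10 and 0.799 normalized counts with Rnf40 and 31.6, 39.7 and 23.6 without it (adjusted p = 0.000295 from limma). Pecam1, another junction protein of endothelium, had 4.78, 4.08 and 2.40 with Rnf40 and 28.6, 35.5 and 18.9 without it (adjusted p = 0.000484). Among the Rnf40-/- libraries both were lowest in replicate 3 and Sox7 in replicate 1, but Sox7 had 26, 31 and 35 reads there. By counting error alone, counts this low do not set the order of the libraries, so nothing is drawn from it.

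Kdr, a receptor of VEGF, rose from 27.4 ± 6.47 to 84.5 ± 28.7 normalized counts (adjusted p = 0.000705), and Flt1, another such receptor, from 547 ± 148 to 831 ± 21.1 (adjusted p = 0.00356). Emcn, a sialomucin of venous endothelium, fell from 126 ± 37.7 to 55.3 ± 11.9 (adjusted p = 0.0023; SD, n = 3 each). The summed level of the list, mostly from Flt1, was between 766 and 963 in Rnf40+/+ libraries and between 1132 and 1235 in Rnf40-/- libraries. None of the genes of the list was without a read. The median log2 fold change of the list was 1.09, or 0.64 with at least 10 reads required in every library and 0.67 with a pseudocount of 10. The part of endothelial cells in the rise of Sox7 was not tested.

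**Figure D4:**
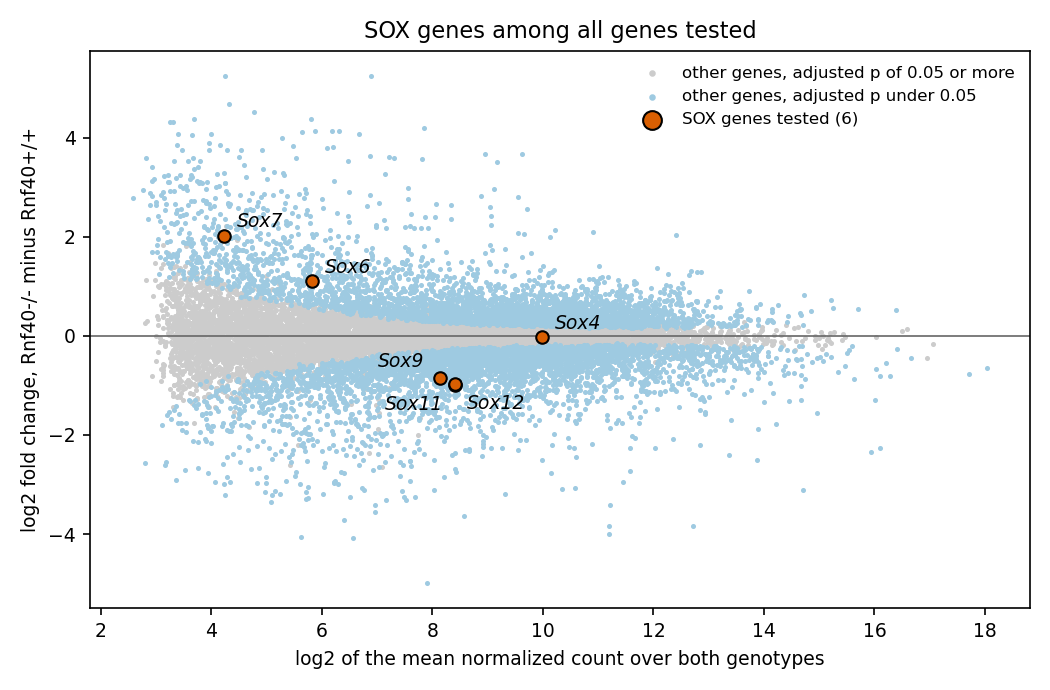
Log2 fold change (Rnf40-/- minus Rnf40+/+) against the log2 of the mean normalized count for each of the 16378 genes tested, with genes of an adjusted p under 0.05 in light blue and the 6 SOX genes tested in orange. Sox7 and Sox6 lie among genes with low counts and above 0, Sox11, Sox12 and Sox9 together at about -1, and Sox4 at 0 with the highest count of them.

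Markers of other cells that are known to express SOX genes were also read. At an adjusted p under 0.05 in limma, 24.1% of all genes tested were lower and 23.3% higher. Of 7 glial markers 5 were tested, and S100b, a calcium-binding protein that cartilage also makes, was the one with an adjusted p under 0.05, but met the filter through the Rnf40-/- libraries alone and so had to be higher to be tested (10.5 ± 1.98 and 33.5 ± 4.15 normalized counts, adjusted p = 0.00157). Of the 5 glial markers tested, 4 had a log2 fold change above 0 and 1 below 0, with a median of 0.23. The summed level of this list was between 162 and 177 in Rnf40+/+ libraries and between 199 and 243 in Rnf40-/- libraries. Of 7 skeletal myoblast markers 2 were tested. Des, the muscle intermediate filament, fell from 224 ± 179.5 to 35.1 ± 7.69, with Rnf40+/+ replicate 1 the highest at 431 and the other two at 126 and 114, and Chrna1, an acetylcholine receptor subunit, rose from 71.3 ± 5.42 to 168 ± 10.7 (adjusted p = 0.000486 and 4.41e-05). Myod1, which defines myoblasts, had no read in any library. Its list summed to between 192 and 499 in Rnf40+/+ and between 199.9 and 218 in Rnf40-/- libraries.

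Macrophage markers were present in both genotypes. All 8 in the table were tested. At an adjusted p under 0.05 from limma, Tyrobp, Lyz2 and Fcer1g fell and Ptprc and Cd14 rose (log2 fold changes of -1.71, -1.18, -0.71, 1.37 and 0.66). Over all genes tested, 24.1% were lower and 23.3% higher by this rule, so these calls are no result about the list. The summed level was between 5244 and 9476 in Rnf40+/+ libraries and between 3399 and 3771 in Rnf40-/- libraries, mostly from Lyz2, a lysozyme. Of 6 epithelial markers 3 were tested, and 0 had an adjusted p under 0.05 in limma, edgeR or DESeq2 (0 at an unadjusted p under 0.05 in limma), and their sum was at most 107 normalized counts in any library. The part of these cells in the levels of SOX genes was not tested. The fall of Sox9, Sox11 and Sox12 stood beside that of the fibroblast markers, whose median log2 fold change was -0.64. Among these, Col1a2 fell most (log2 fold change -2.26, adjusted p = 7.63e-09), followed by Thy1 (-1.87, adjusted p = 4.29e-08) and Pdgfra (-1.09, adjusted p = 4.79e-07). Col1a1 and Col3a1 changed by -0.80 and -0.75 (adjusted p = 0.000341 and 4.64e-05). The list did not move evenly, as Vim and Twist1 changed by -0.26 and -0.23. Dcn and Lum were not past the threshold (log2 fold changes of 0.20 and -0.57, adjusted p = 0.312 and 0.185 from limma). Whether the fall of the SOX genes belongs with that of these markers was not tested.

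**Figure D5:**
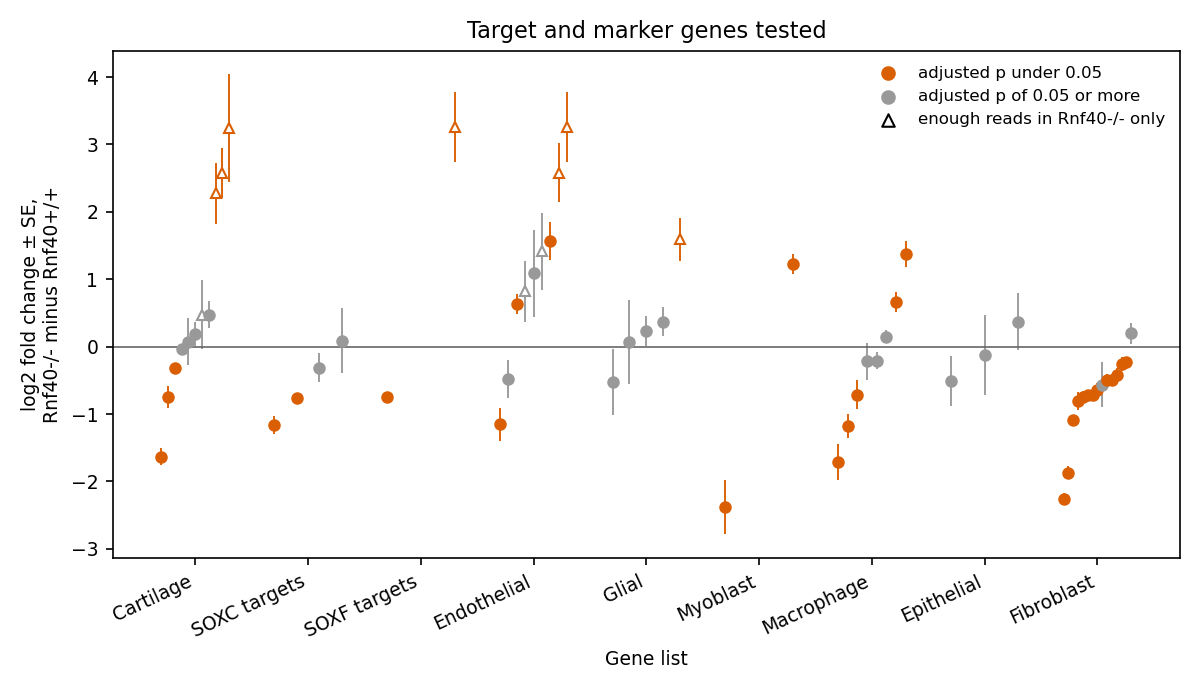
Log2 fold change (Rnf40-/- minus Rnf40+/+) with its standard error for each tested gene of the lists of SOX targets and cell type markers, with an adjusted p under 0.05 in orange. Open triangles mark genes that had enough reads in the Rnf40-/- libraries alone. In the cartilage list the genes that rose at an adjusted p under 0.05 are all triangles, whereas 13 fibroblast markers lie below 0 and passed the threshold.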

How the data were processed

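Gene expression was measured by RNA-seq in 3 Rnf40+/+ and 3 Rnf40-/- libraries of MEFs. Reads were mapped by the authors against mm9 transcripts and scaled with DESeq. The submitters' processing notes name Bowtie2 (version 2.1.0) and DESeq (version 1.14.0). How reads were counted, and whether strand was used, is not given in the sources used here. Each deposited value is a signal, the normalized count of a gene. Divided by the step between values, 100% of them came out as whole reads in every library (relative tolerance 0.001), and these reads were used for depth and count tests. edgeR called 3857 genes higher and 3940 lower from them.

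A filter on low reads (filterByExpr, edgeR version 4.0.16) left 16378 of 29955 genes. Genotypes were compared with limma (version 3.58.1, variance trend) on log2(normalized count + 1), a scale that understates changes of genes with few reads. All p-values were adjusted over these genes by Benjamini-Hochberg. No set test was run. With 3 libraries against 3 an exact permutation test cannot give a p below 0.1. Alternatives were edgeR and DESeq2 (version 1.42.0) on the recovered reads, other scalings, pseudocounts and filters, a replicate block, and each library left out. In simulated data with 200 changed genes among 16378, limma recovered 198 with 12 false calls. The changed genes there had higher counts and larger changes than many genes here, and were a far smaller share of all genes. This recovery therefore does not carry over to genes with few reads, such as Sox7. No libraries were duplicates.

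The members, lists and tests were chosen with earlier results of these data known. The genes named are the members, Rnf40, and from each list those with an adjusted p under 0.05 (at most the 5 with the largest change) and markers near 0. Tubb3, Dcx, Col11a1, Wwp2, Sox10, Dcn, Lum, Vim, Fn1 and Twist1 are outside this rule and were chosen after their values were seen. Positions are from mm9 (GENCODE M1), lengths from the longest transcript. Coding sequences were compared in place of the proteins named in the design, which were not used here, and the sequence of 1 member is not reported here. The calculations used R (version 4.3.3) and Python (version 3.11.15).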

Additional observations from a re-analysis of the deposited data

How the results depend on the processing

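Under the 16 alternatives, Sox11, Sox12, Sox6 and Sox9 kept their direction and an adjusted p under 0.05, and so did Sox7 under the 15 in which it was tested. Their log2 fold changes ranged from -1.03 to -0.94 (Sox11), -1.12 to -0.85 (Sox12), -0.91 to -0.73 (Sox9), 0.90 to 1.27 (Sox6) and 1.27 to 2.22 (Sox7). Sox7 met the filter on low reads through the Rnf40-/- libraries alone. Where that filter was kept, Sox7 had to be higher to be tested, so its kept direction is no further support. The log2 fold change of Sox4 was between -0.081 and 0.019 with a library left out, and above 0 (0.019) without Rnf40+/+ replicate 2. By the criteria of the study, the number of higher members was 1 with a pseudocount of 10 or with at least 10 reads in every library, and between 1 and 2 with a library left out. The number of lower members by these criteria was between 0 and 1, as Sox11 or Sox12 passed the limit of -1 without Rnf40+/+ replicate 1 or 2 or without any of the Rnf40-/- replicates. With at least 10 reads in every library, 1 member was higher with an adjusted p under 0.05, since Sox7 was not tested.

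That filter also left 0 higher cartilage genes with a median of -0.042, 0 higher SOXF targets with a median of -0.74, 2 higher endothelial and 0 higher glial markers with medians of 0.64 and 0.30, and a median of -0.77 for SOXC targets, because genes with few reads in Rnf40+/+ MEFs were dropped. With a mean above 15, the medians were 0.073 (cartilage), -0.77 (SOXC targets) and 0.37 (glial). With a pseudocount of 10 they were 0.48 (SOXF targets) and 0.67 (endothelial), and the glial median was 0.35 with edgeR and with DESeq2 (0.349 and 0.352). With a library left out, medians ranged from 0.069 to 0.41 (cartilage), -0.64 to -0.43 (SOXC targets), 0.15 to 0.43 (glial) and -0.66 to 0.22 (epithelial), the number of lower endothelial markers from 1 to 2 and that of higher fibroblast markers from 0 to 1.

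The replicate numbers did not pair the libraries (correlations of deviations of 0.0118, 0.0174 and 0.0212 for equal numbers), and no library correlated best with its own number. With the replicate block, calls over all genes went from 3809 to 4021 higher and from 3955 to 4196 lower, and the log2 fold change of Sox11 stayed at -0.99 (adjusted p = 8.53e-07 from limma). Depth limits Sox5, Sox8, Sox17 and Sox18, which have too few reads for a test.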
